A study of Arabidopsis thaliana with 12 samples.

Results

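Cysteine/histidine-rich C1 domain genes were examined in roots of Arabidopsis thaliana Col-0 seedlings exposed to ionic gold. The members are all transcript clusters, the array's units for whole genes, whose description in either deposited table names both histidine and a C1 domain. There are 46 such genes among the 2762 transcript clusters of both tables. Clusters are called genes below, although not every one names a locus. Of these, 28 have a row in the gene table of 800 features, and 18 appear only through exons in the exon table of 4977 regions. The paper counts fewer changed genes than the gene table has features. Terpene cyclases that share only the words C1 domain are not members. The tables list features because the authors found them changed, so every member was chosen by the contrast described here, and its values are a description without a test.

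The C1 domain is a small zinc-binding fold, held together by cysteine and histidine residues and first known from protein kinase C, where it binds diacylglycerol. Plants carry a large family of proteins with divergent copies of this fold, often called DC1 domains, and for most of them no function has been assigned. Among the few studied, ULI3 takes part in the UV-B response and VLG is needed for vacuole formation in gametophytes. The array annotation gives none of the 46 genes a name beyond its locus number, and so no individual role is stated for them below.

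The gold group consisted of seedlings aged 12 days whose roots stood for 12 h in gold at 10 ppm and pH 4.2, with a compound that the labels write as HAuClO4 and the methods as chloroauric acid. Roots of the control group were kept, by the methods, in distilled water at the same pH. Neither group had nutrient medium during the exposure, both were wild type, and each replicate pooled the whole roots of many seedlings. Each of the 2 groups had 3 replicates with an array apiece, and these 6 arrays were deposited as 12 samples, since each was summarised once over genes and once over exons. The tables used here give a single averaged log2 signal for each group and no signal of a single array, so no spread between replicates or standard error was computed and no test was run here, and the number of arrays limits the precision. The arrays' raw intensity files were not analysed here. Each signal is printed to 0.01, and a difference between groups can be off by up to that amount through rounding. Since whole roots were taken, fewer cells of one type and less RNA per cell cannot be told apart.

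All 28 gene features of the family were lower in gold than in control, and 0 were higher. Among all 800 listed features, 34.6% were lower in gold, and among the 629 features that name a locus, 33.4% were. The family made up 10.1% of the 277 lower features and 13.3% of the 210 lower features that name a locus. The family description was the most frequent one among the lower features, in a tally made after the values were seen. It was followed by "hypothetical protein" with 16 features, and no other description was shared by more than 4. The tally counted matching wordings and left out features without a description. A family described in several wordings is split in it, so it does not rank families. Whether each gene listed lower would be lower in a new set of roots cannot be read from averages of the arrays that put it in the table.

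The median difference of the 28 features was -1.345 on the log2 scale, or 2.54-fold lower in gold, with a range from -2.30 to -1.01. The other 249 lower features had a median of -1.24, and the other 182 that name a locus had a median of -1.20. A difference of at least 3-fold was seen for 8 of the 28 family features, against 14.4% of all lower features and 5.00% of all listed features. The 3 family members that differed most, AT2G02640, AT3G27490 and AT2G02690, are among the 10 largest decreases of features that name a locus, and 5 members are among the first 20.

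AT2G02640, on chromosome 2, had an average log2 signal of 4.87 in gold-treated roots and 7.17 in control roots, a difference of 4.92-fold. It was the third largest decrease among the listed features that name a locus. Its gold signal lies under 6, the level below which signals were treated as dim, and its control signal lies above it. For AT3G27490 on chromosome 3 the average signal was 6.15 in gold and 8.22 in control, or 4.20-fold lower in gold. AT2G02690, also on chromosome 2, had 7.69 in gold and 9.63 in control, a difference of 3.84-fold. All 3 genes thus lay well past the family's median.

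The next 5 members also passed a 3-fold difference. AT1G55430 had 8.23 in gold and 9.99 in control, 3.39-fold lower, and AT1G61840 had 8.88 in gold and 10.56 in control, 3.20-fold lower. AT3G46800, with 5.15 in gold and 6.82 in control, and AT5G55780, with 6.58 in gold and 8.25 in control, were both 3.18-fold lower. AT1G55700 had 7.76 in gold and 9.37 in control, 3.05-fold lower. The 2 members that follow them missed a 3-fold difference: AT5G43040 had 7.88 in gold and 9.43 in control, and AT1G66440 had 7.99 in gold and 9.48 in control.

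**Figure D1:**
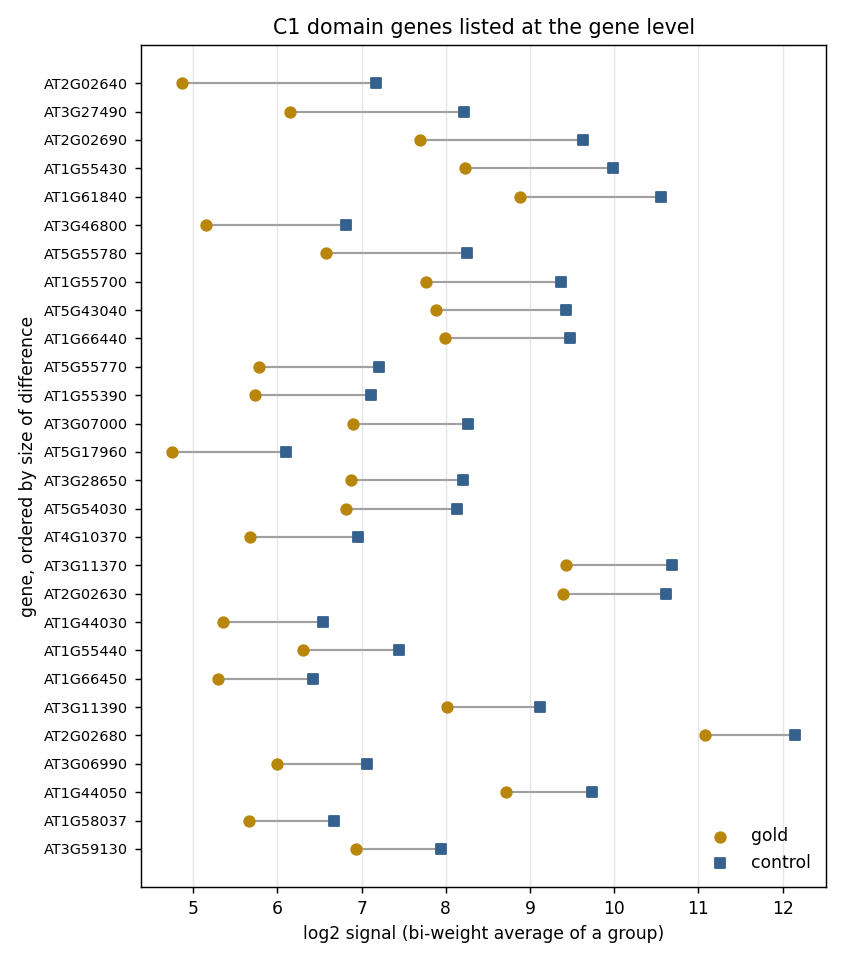
Average log2 signal of the 28 C1 domain genes listed at the gene level, one gene per line, with gold-treated roots as circles and control roots as squares; there are no error bars because the tables used hold only group averages. Every gold circle lies left of its control square, and the difference runs from -2.30 for AT2G02640 at the top to -1.01 for the genes at the bottom.

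At the other end of the range, 2 members stood just inside the authors' 2-fold criterion. AT1G58037 had 5.66 in gold and 6.67 in control, and AT3G59130 had 6.93 in gold and 7.94 in control, both a difference of -1.01. AT1G44050 had 8.71 in gold and 9.74 in control, AT3G06990 had 6.00 in gold and 7.06 in control, and AT2G02680 had 11.08 in gold and 12.15 in control. These 3 genes differed by -1.03, -1.06 and -1.07. Members just outside the criterion have no row in the gene table, and their values were not analysed here. The lower edge of the distribution is hence set by the listing, as the plot of all listed differences shows.

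**Figure D2:**
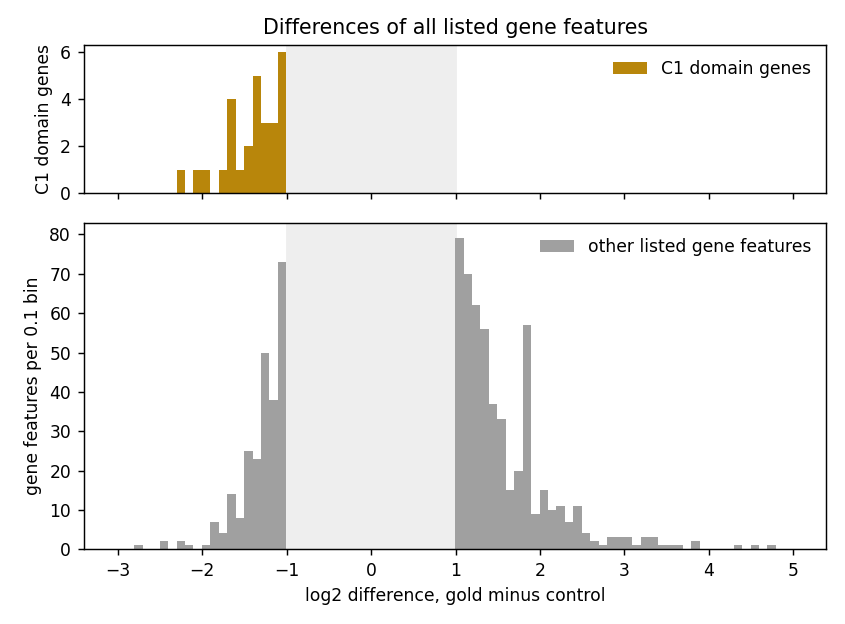
Number of listed gene features per bin of 0.1 in the log2 difference of gold minus control, for the 28 C1 domain genes (top) and the other listed features (bottom). The shaded range is empty because the tables hold only changes of more than 2-fold; all C1 domain genes lie to its left, between -2.30 and -1.01.

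The family features were not all dim. Control signals ranged from 6.10 to 12.15 with a median of 8.215, and gold signals from 4.75 to 11.08 with a median of 6.845. None of the 28 had a control signal under 6, while 9 had a gold signal under 6. Of the other 182 lower features that name a locus, 9.89% had a control signal under 6 and 36.8% a gold signal under 6. Signals of different probes do not rank the amounts of their transcripts, so these ranges say how far the measurements stood above dim signal and not which gene was expressed most. Among the gene features of the family, the brightest control signal was that of AT2G02680, given above. AT3G11370 followed, with 9.43 in gold and 10.69 in control, then AT2G02630, with 9.39 in gold and 10.62 in control, AT1G61840 and AT1G55430. Members with bright probes are thus found both near the 2-fold criterion and past a 3-fold difference.

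The remaining 13 gene features lay between -1.43 and -1.10. They are AT5G55770, AT1G55390, AT3G07000, AT5G17960, AT3G28650, AT5G54030, AT4G10370, AT1G44030, AT1G55440, AT1G66450 and AT3G11390, together with AT2G02630 and AT3G11370, whose signals are given above. The dimmest gene feature of the family was among them: AT5G17960 had 4.75 in gold and 6.10 in control. No 2 family features shared both of their signals, so none of these rows is a copy of another. Members of the family have similar sequences, and whether a probe of one member also takes up transcript of another was not tested.

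Many of these genes lie side by side. All 46 loci are protein-coding genes of the TAIR10.1 annotation. By its order of genes, 17 of the 28 gene features lie within 20 kb of another of them, in 7 groups. With the genes listed only by exons added, 25 of the 46 lie in 9 groups. Of the 28 features, 12, or 42.9%, stand next to another lower feature, and all 12 have a family member beside them. Among the other 174 lower features with a single locus in the annotation, 16, or 9.20%, stand next to a lower feature. How often all annotated family genes stand side by side was not computed, so a relation of the grouping to gold was not tested. All members of every group were lower in gold, which follows from all 46 listed members being lower.

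The largest group holds 6 members among 9 consecutive protein-coding genes of chromosome 2, from AT2G02610 to AT2G02690. AT2G02630, AT2G02640, AT2G02680 and AT2G02690 are listed at the gene level, with differences of -1.23, -2.30, -1.07 and -1.94. AT2G02610 and AT2G02620 are listed through an exon each, with differences of -1.26 and -1.37. The other genes of the stretch, AT2G02635, AT2G02650 and AT2G02660, are in neither table, where a change of under 2-fold would not be listed. Members were recognised only by their description in the tables. Whether an unlisted gene inside this or another group belongs to the family was not checked. The differences in this group span 1.23 log2 units, the widest of the 9 groups, so neighbours were listed together but did not differ from control by the same amount.

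On chromosome 1, AT1G44020, AT1G44030 and AT1G44050 are consecutive. AT1G44030 had 5.36 in gold and 6.54 in control, AT1G44050 was given above, and AT1G44020, listed only by an exon, had 6.01 in gold and 7.07 in control. With 2 of them taken at the gene level and 1 from an exon, their differences lie within 0.15 of each other. The listed exon of AT1G44030 differed by more, at -1.41, so this closeness depends on the level used. A second group on this chromosome holds AT1G55390, AT1G55430 and AT1G55440, with AT1G55420 of neither table between them. AT1G55390 had 5.74 in gold and 7.11 in control, and AT1G55440 had 6.31 in gold and 7.45 in control. AT1G55430, the middle one, differed by 0.62 more than AT1G55440. On chromosome 3, AT3G11370, AT3G11390 and AT3G11402 lie among 5 consecutive genes. AT3G11390 had 8.02 in gold and 9.12 in control. AT3G11402 is listed through an exon with 3.44 in gold and 5.12 in control, and this transcript cluster also names AT3G11397, a PRA1 family gene, so the signal may come from either gene.

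**Figure D3:**
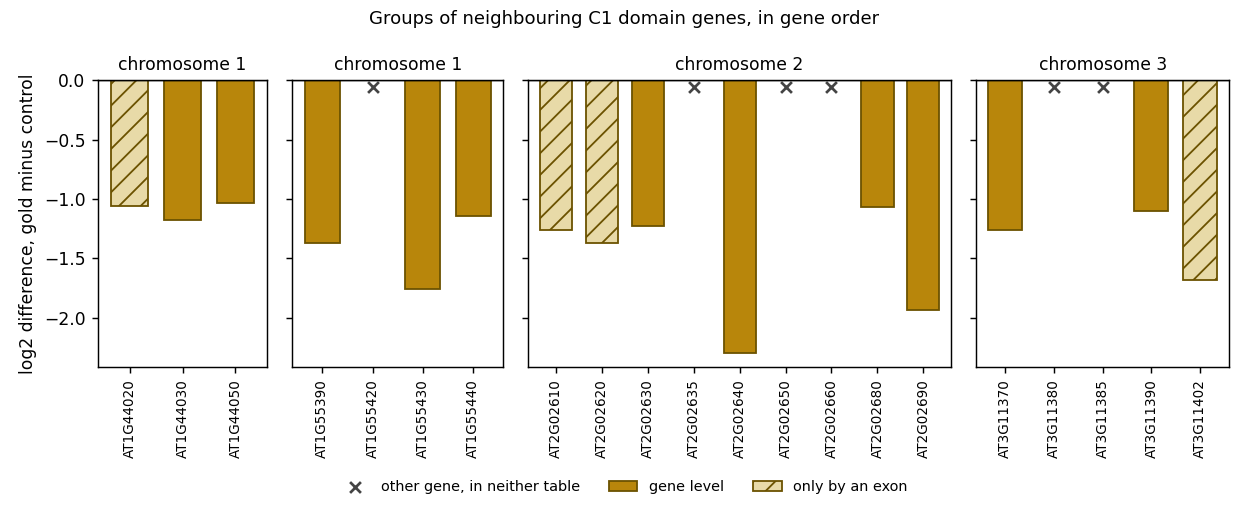
Log2 difference of gold minus control in the 4 groups of 3 or more neighbouring C1 domain genes, with genes in chromosomal order along the horizontal axis. Filled bars are gene level differences, and hatched bars the exon difference of genes listed only by an exon. Crosses mark other protein-coding genes that are in neither table and were not checked for family membership. All bars point down, from -1.03 for AT1G44050 to -2.30 for AT2G02640.

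The 5 pairs were lower in gold too, as was every listed member. AT5G55770 had 5.78 in gold and 7.21 in control, beside AT5G55780 with the values given above, and their differences were 0.24 apart. AT1G66440 and AT1G66450 differed by -1.49 and -1.13, and AT3G06990 and AT3G07000 by -1.06 and -1.36. AT3G27490 stands next to AT3G27480, and AT3G46800 next to AT3G46810, and in both of these pairs the second gene is listed only by exons. The remaining 21 members have no other member within 20 kb. By chromosome, 11 members are on chromosome 1, 12 on chromosome 2, 13 on chromosome 3, 3 on chromosome 4 and 7 on chromosome 5.

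The exon table gave a finer view of the same arrays. It lists 54 exon regions of the family, all lower in gold and 0 higher, whereas 45.4% of all listed exons were lower. The 28 genes with a gene feature hold 35 of these exons. Among all listed exons of genes with a gene feature 31.1% were lower, but that share includes exons of genes higher in gold, whereas these 28 were all lower. Every one of the 28 has at least 1 listed exon, and 23 have exactly 1. For 20 of the 28 the listed exon holds the same pair of signals as the gene, which leaves no separate exon measurement for these genes. The other 8 genes have 15 listed exons with signals of their own. These exons were measured on the same arrays as the genes and are not independent replicates of them.

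In 5 of these 8 genes every listed exon differed more than the gene, and in 3 the exons lay on both sides of it. Exons that differed by under 2-fold are not listed, so for genes near that criterion these counts partly follow from the listing. AT2G02630 had the widest spread. Its exons were at 11.15 in gold and 12.18 in control, at 9.89 in gold and 11.35 in control, and at 9.00 in gold and 10.39 in control, so the differences ran from -1.46 to -1.03 around the gene's -1.23. The exons of AT2G02690 had 7.38 in gold and 9.56 in control, and 7.80 in gold and 9.76 in control. Both were lower by more than the gene, with differences of -2.18 and -1.96. AT3G07000, whose gene signal was 6.90 in gold and 8.26 in control, had 3 exons between -1.37 and -1.20. No listed exon of any member went against its gene.

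The 18 genes without a gene feature have 19 listed exons, all lower in gold. Among all listed exons of genes without a gene feature 58.0% were lower. The median difference of the 19 was -1.18, or 2.27-fold lower in gold, and the other 1520 lower exons of such genes had a median of -1.21. A single exon is the basis for 17 of the 18 genes. Only AT3G27480 has 2, whereas 21.9% of the 1962 genes without a gene feature have at least 2, a comparison not matched for the number of exons per gene. The exons of AT3G27480 had 6.40 in gold and 7.93 in control, and 7.93 in gold and 9.02 in control.

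AT2G43220 had the largest difference of these exons, with 4.39 in gold and 6.27 in control, 3.68-fold lower in gold. AT3G11402 followed at 3.20-fold, and AT3G46810, with 6.83 in gold and 8.36 in control, was 2.89-fold lower. The smallest was that of AT2G16050, at 3.08 in gold and 4.09 in control, where both signals are dim. AT5G22355, with 8.82 in gold and 9.84 in control, and AT2G04500, with 6.78 in gold and 7.81 in control, differed by -1.02 and -1.03. For 5 of the 19 exons, or 26.3%, the control signal was under 6. Among the other 1520 lower exons of genes without a gene feature, 31.1% had such a control signal. None of the family's gene features did. The others, AT4G01925, AT2G23100, AT4G11390, AT2G17590, AT2G37820, AT3G45530, AT3G50010 and AT5G42840, lay between -1.33 and -1.06.

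**Figure D4:**
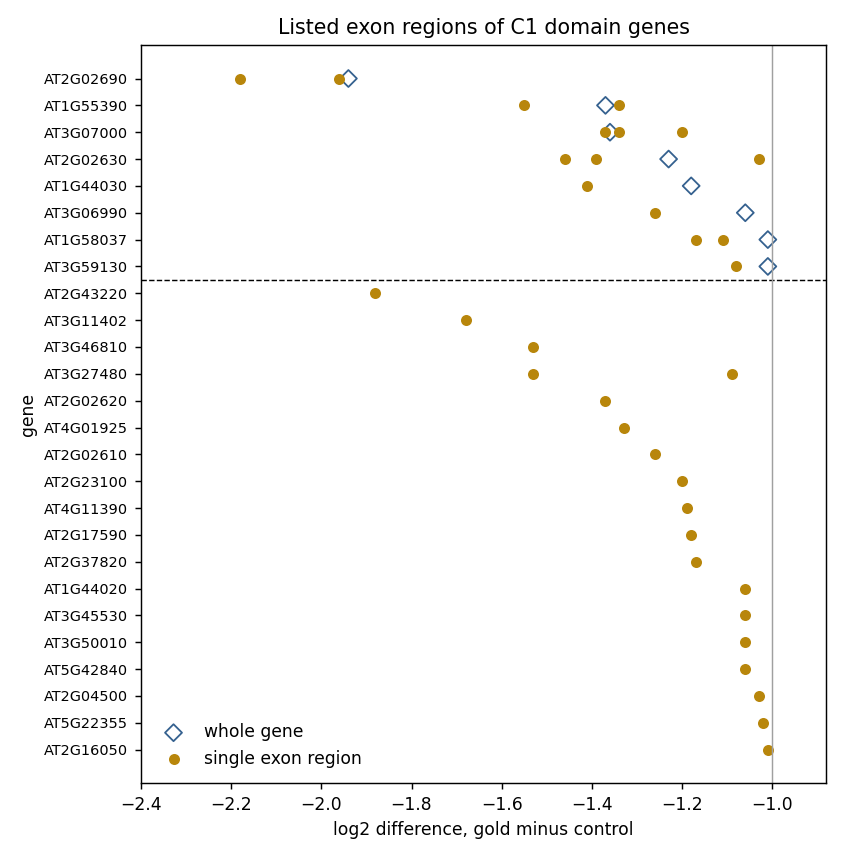
Log2 difference of gold minus control for the listed exon regions (filled circles) of C1 domain genes; diamonds are the gene level difference, the grey line marks a 2-fold decrease, and the dashed line separates the 8 genes with exon signals of their own from the 18 genes listed only by exons. All points lie left of the 2-fold line, and 17 of the lower 18 genes have a single point.

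A few related genes stood outside the rule. Features described only as DC1 domain proteins number 4 genes, AT4G02180, AT5G02360, AT5G03360 and AT1G29179, and all 6 of their listed exons were lower in gold, against 45.4% of all listed exons. AT5G02360 had 7.28 in gold and 8.60 in control at the gene level, and AT4G02180 had 7.82 in gold and 8.90 in control. The transcript cluster of AT1G29179 names a hypothetical protein as well. Of 11 genes fixed as a list of studied C1 domain proteins and diacylglycerol kinases, the enzymes that use up diacylglycerol, 0 have a gene feature. Only 800 gene features are listed, a small part of the array, so 0 of 11 does not set these genes apart. ULI3, VLG and the nucleoredoxins NRX1 and NRX2 are in neither table. One exon of the diacylglycerol kinase DGK4 had 4.56 in gold and 2.61 in control, 3.86-fold higher in gold. Both of these signals are dim, under 6.

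Markers of root cell types were tallied beside these values. Of 18 genes known from root hairs, 2 were lower at the gene level and 7 more were lower through exons. None was higher, and the other 9 are not listed. Over all listed features 34.6% were lower at the gene level, and of the 1962 genes listed only by exons 1094 had all their exons lower and 842 all higher. These shares are among listed genes only, so they give directions and not how many of any 18 genes would be listed. LRX1, a cell wall protein of root hairs, had 8.89 in gold and 9.90 in control, and PRP1, a proline-rich wall protein, had 5.57 in gold and 6.68 in control. Of 2 markers of the hairless epidermal cells, GL2 is not listed, and the transcription factor WER had 7.18 in gold and 8.23 in control. Of 4 endodermis markers, MYB36 and ESB1 were lower through exons, and of 4 meristem markers the mitotic cyclin CYCB1;1 was. None of the 4 stele or the 3 root cap markers is in a table. Of 4 genes of green tissue, LHCB2.1 was higher through 1 exon, with 3.88 in gold and 2.88 in control, both dim signals. The part of root cell makeup in the lower C1 domain signals was not tested. Because unchanged genes are not listed, the labelled tissue could not be checked against its markers.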

How the data were processed

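Labelled cDNA from root RNA was hybridised to AraGene-1_0-st arrays. Per the labels and methods, the authors summarised probes with RMA in Affymetrix Expression Console. Each deposited log2 signal is the authors' bi-weight average over a group's arrays, which gives outlying arrays less weight. They compared the groups by one-way ANOVA in the Transcriptome Analysis Console, and the tables list only what changed by over 2-fold with a low unadjusted p-value. Their columns of fold change, p-value and false discovery rate were not used here, and 0 columns of single samples were available to these calculations.

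Differences are gold minus control log2 signal, and folds were computed from them. Samples were grouped by title. Members were matched by description, exons were assigned to genes through the transcript cluster they belong to, and neighbours were read from the order of genes in TAIR10.1, with no coordinate reported. Members and lists were chosen with earlier results of these data known. All members may be named; full values were given to the 10 largest and 5 smallest differences, the 5 brightest, larger neighbour groups and exon-only genes with 2 exons or more, and further members were chosen after their values were seen. Matching and grouping were tested on simulated data. Python 3.11.15, numpy 2.4.6, pandas 2.3.3 and matplotlib 3.10.9 were used.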

Additional observations from a re-analysis of the deposited data

How the results depend on the processing

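Only group averages were analysed, so leaving out single replicates was not run. No paired analysis was possible because the tables used here carry no value of a single replicate. With a fold change of at least 3, the family had 8 lower gene features in place of 28, with a median difference of -1.72 in place of -1.345, and 11 lower exons in place of 54. This stricter threshold keeps the largest differences by construction. Requiring at least 2 listed exons left 1 gene in place of 18 among those listed only by exons. The median was -1.37 when each gene was represented by its median exon, and -1.33 with the DC1 domain descriptions added, an alternative chosen after seeing the data. A signal of at least 6 in the brighter group left 28 gene features, 49 exons and 13 exon-only genes. Neighbour groups held 14 gene features at 10 kb, and 17 at 20 kb and 50 kb. The share of the annotated family that is listed was not run, because the annotation table used here holds no product names, and protein and promoter features were not analysed here. No direction changed under the alternatives run, but dropping or regrouping members that were all lower could not change a direction. The tables hold only features past the authors' criteria. Changes of other family members that fell short of those criteria, in either direction, cannot be seen.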

Other observations

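Terpene cyclases that share the words C1 domain, a different protein fold, were left out of the family. They are 8 genes in the tables, 2 of them at the gene level and both lower in gold, against 34.6% of all listed gene features. Of their 19 listed exons, 18 were lower and 1 was higher in gold, against 45.4% lower among all listed exons. The exception belongs to AT3G29110, whose exons had 4.31 in gold and 3.10 in control, and 4.58 in gold and 6.54 in control. All 4 of these signals but 1 lie under 6, and the difference between the exons was not tested.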
